A study of Mus musculus with 2 samples.

Results

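The 9 genes described here encode factors of blood vessel growth and tissue repair: Vegfa, Vegfb, Nrp1, Hbegf, Areg, Thbs1, Spp1, Fn1 and Pdgfb. They were chosen by name, are 9 of the 32285 genes in each matrix, and all had at least 1 molecule in both libraries. CD45+ cells sorted from MC38 tumors (a colon carcinoma line of mice) were profiled by droplet single-cell RNA sequencing in 1 library without treatment (Control) and 1 library collected 4 days after a single 20 Gy dose of ionizing radiation (IR). Both libraries pooled tumors of young adult animals labelled WT, a name that is also used for Ythdf2 fl/fl mice on the C57BL/6J background. The sample records also name a narrower population, CD45+CD11b+Ly6Chi, which is not the sort in the protocol, and lymphocytes and dendritic cells were present. With 1 library per group there is no replicate, no test was run, and every difference below compares these 2 libraries only.

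Levels rest on UMIs, the tags by which each captured RNA is counted once. Barcodes with at least 1000 UMIs and 200 genes and at most 25% mitochondrial UMIs were kept as cells, 4679 in Control and 3410 in IR, with 41533178 and 37842119 UMIs and medians of 7302 and 8268.5 per cell. The cells were gated by marker genes, none of them a member of the list. The gates held, in Control and IR, 759 and 1109 monocytes, 51 and 85 nonclassical monocytes, 2001 and 400 macrophages, 32 and 227 neutrophils, 28 and 10 type 1 dendritic cells, 54 and 36 type 2 dendritic cells, 125 and 146 mature dendritic cells, 8 and 8 plasmacytoid dendritic cells, 35 and 64 basophils or mast cells, 78 and 60 stromal cells, 485 and 350 T cells, 209 and 308 NK cells and 18 and 8 B cells. A further 269 and 233 barcodes carried markers of more than 1 lineage and 527 and 366 passed no gate. The libraries had 6 kept barcode sequences in common. A level is given as CPM, the UMIs of a gene per 1000000 UMIs of the gate, with an exact Poisson 95% interval that covers counting error only. A gene is said to be called higher or lower in IR where it had at least 50 UMIs over both libraries of a gate, its CPM differed at least 1.5 times and the 2 intervals did not overlap.

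Vessel growth and repair rest on a small set of secreted signals and on the matrix around the cells. VEGF-A and VEGF-B act on endothelial receptors, with neuropilin-1 (Nrp1) as a co-receptor, and PDGF-B recruits the pericytes that coat new vessels. HB-EGF (Hbegf) and amphiregulin (Areg) are membrane-anchored ligands of the EGF receptor that drive epithelial and stromal repair once shed, while thrombospondin-1 (Thbs1), osteopontin (Spp1) and fibronectin (Fn1) are secreted into the matrix, where thrombospondin-1 restrains vessel growth and the other two bind integrins.

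In the 2 largest gates some of the genes were higher in IR and others lower. In monocytes, Areg and Spp1 were called higher and Vegfb and Fn1 lower, that is 2 and 2 of 9, where 4.47% of the 9500 genes with enough UMIs were called higher and 3.48% lower. In macrophages, Hbegf, Areg, Thbs1 and Spp1 were called higher and Vegfb and Nrp1 lower, that is 4 and 2 of 9, where 4.37% and 6.97% of 10471 genes were. The median log2 ratio of IR over Control was 0.23 in monocytes and 0.22 in macrophages for the 9 genes, against -0.04 and -0.09 over all genes with a ratio. Each of the 9 had the same sign in both gates.

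**Figure D1:**
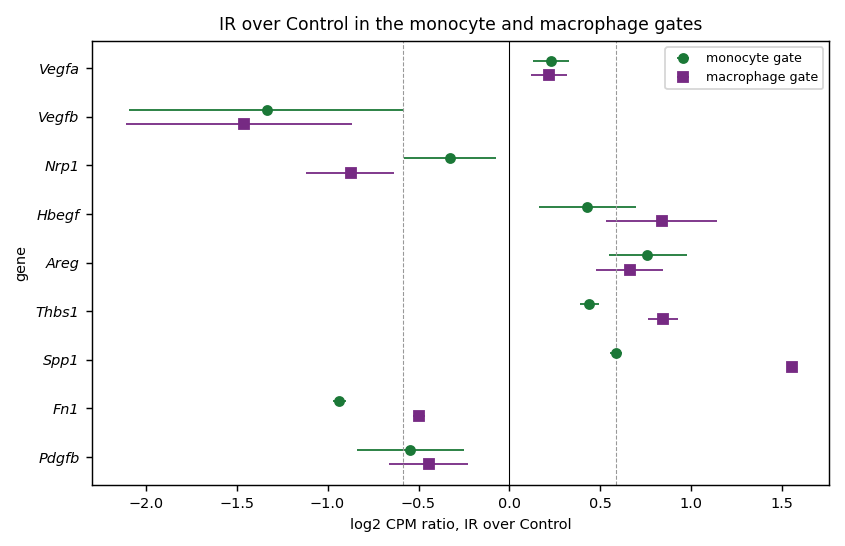
Log2 CPM ratio of IR over Control for each gene in the monocyte and the macrophage gate, with exact conditional 95% intervals for counting error and lines at 1.5 times in either direction. Spp1 in macrophages had the highest ratio at 1.55 and Vegfb in macrophages the lowest at -1.46.

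Vegfa, on the minus strand of chr17:46016993-46032369 (GRCm38, as all positions here), encodes the main growth factor for new vessels and is a known target of low oxygen. Monocytes held 216 CPM (204 to 229, 1199 UMIs) without and 253 CPM (244 to 263, 2928 UMIs) after radiation, and macrophages 178 CPM (172 to 184) and 207 CPM (194 to 220.0). IR was above Control in both gates with no overlap of intervals, but the log2 ratios of 0.23 (0.13 to 0.33) and 0.22 (0.12 to 0.32) were under 1.5 times. Vegfa was called in none of the 9 gates where it had enough UMIs. Neutrophils had the highest level in both libraries, 309 CPM (194 to 469, 22 UMIs) without and 300.5 CPM (269.7 to 334, 348 UMIs) after radiation, and only in Control did their interval overlap that of monocytes.

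Stromal cells held 152 and 143 CPM of Vegfa, NK cells 123 and 102 CPM, mature dendritic cells 67.8 and 55.9 CPM and T cells 56.9 and 84.9 CPM. Neutrophils, monocytes and macrophages thus led in both libraries. After each cell was thinned to 1000 UMIs, 19.2% (16.5% to 22.2%) of Control monocytes and 19.1% (16.8% to 21.6%) of IR monocytes had a Vegfa UMI (exact binomial intervals), against 50.3% and 57.5% unthinned. T cells, given beside each share for comparison, had 2.47% and 5.14% when thinned. The median depth was 4650 and 5955.5 UMIs per T cell and 6077 and 8491 per monocyte.

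Vegfb, on the minus strand of chr19:6982473-6987651, encodes a second ligand of VEGF receptor 1, known more for effects on tissue survival than on vessel sprouting. Monocytes held 6.31 CPM (4.40 to 8.78, 35 UMIs) without and 2.51 CPM (1.68 to 3.61, 29 UMIs) after radiation, a log2 ratio of -1.33 (-2.09 to -0.58). Macrophages held 14.0 CPM (12.4 to 15.7, 280 UMIs) and 5.09 CPM (3.29 to 7.51, 25 UMIs), a log2 ratio of -1.46 (-2.11 to -0.86). Both gates were called lower, at low counts, and the upper estimate of free RNA was 14.8% and 46.5% of the monocyte level. The highest level was in the stromal gate, 57.5 CPM (45.8 to 71.3) without and 73.0 CPM (61.1 to 86.6) after radiation, with overlapping intervals. Stromal cells held 13.0% and 26.2% of the Vegfb UMIs of the 2 libraries, from 3.48% and 4.78% of all UMIs.

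Pdgfb, on the minus strand of chr15:79995874-80014977, encodes the ligand that recruits pericytes, and was called in none of 5 gates. It stood at 57.3 CPM (54.0 to 60.7) in Control macrophages and 42.1 CPM (36.6 to 48.3) in IR macrophages, and at 29.6 CPM (25.2 to 34.5) and 20.3 CPM (17.7 to 23.0) in monocytes. IR was lower in both gates with no overlap of intervals, at log2 ratios of -0.44 (-0.66 to -0.23) and -0.55 (-0.84 to -0.25), short of 1.5 times. The monocyte ratio passed 1.5 times under 4 alternatives, at -0.68 with gate thresholds of 2 times those used, -0.75 with gates from Ly6c2 and Ccr2 against C1qa, -0.61 without mitochondrial and ribosomal protein genes and -0.67 as a mean over cells. Mature dendritic cells held 14.95 and 27.3 CPM, with overlapping intervals. Basophils or mast cells had 0 UMIs of it in both libraries.

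Nrp1, on the plus strand of chr8:128358604-128503363, encodes neuropilin-1, the co-receptor that binds VEGF-A and semaphorins. Macrophages held 60.7 CPM (57.4 to 64.2, 1217 UMIs) without and 33.2 CPM (28.3 to 38.7, 163 UMIs) after radiation, a log2 ratio of -0.87 (-1.12 to -0.63), and were called lower. Monocytes held 38.1 CPM (33.1 to 43.6) and 30.3 CPM (27.2 to 33.6), with overlapping intervals. Within the macrophage gate the Lyve1 subset, set by Lyve1, Folr2, Cd163 and Timd4, markers of resident macrophages, had the highest level. It held 282 CPM (238 to 330.4) in 83 Control cells and 150.4 CPM (84.2 to 248) in 10 IR cells, with overlapping intervals. No other macrophage subset was above 73.2 CPM in either library. The Lyve1 subset was 1.77% of Control cells and 0.293% of IR cells.

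Nrp1 was also called lower in T cells, from 45.0 CPM (37.7 to 53.4) to 20.1 CPM (15.5 to 25.5), a log2 ratio of -1.17 (-1.61 to -0.73), in a gate where 6.19% of 8000 genes were called in either direction. Neuropilin-1 is known on regulatory T cells. The other 3 members called in T cells, of 9 tested, were Hbegf, Thbs1 and Spp1, all higher in IR. Hbegf in T cells went from 21 to 72 UMIs, of which 18 were in 1 cell.

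**Figure D2:**
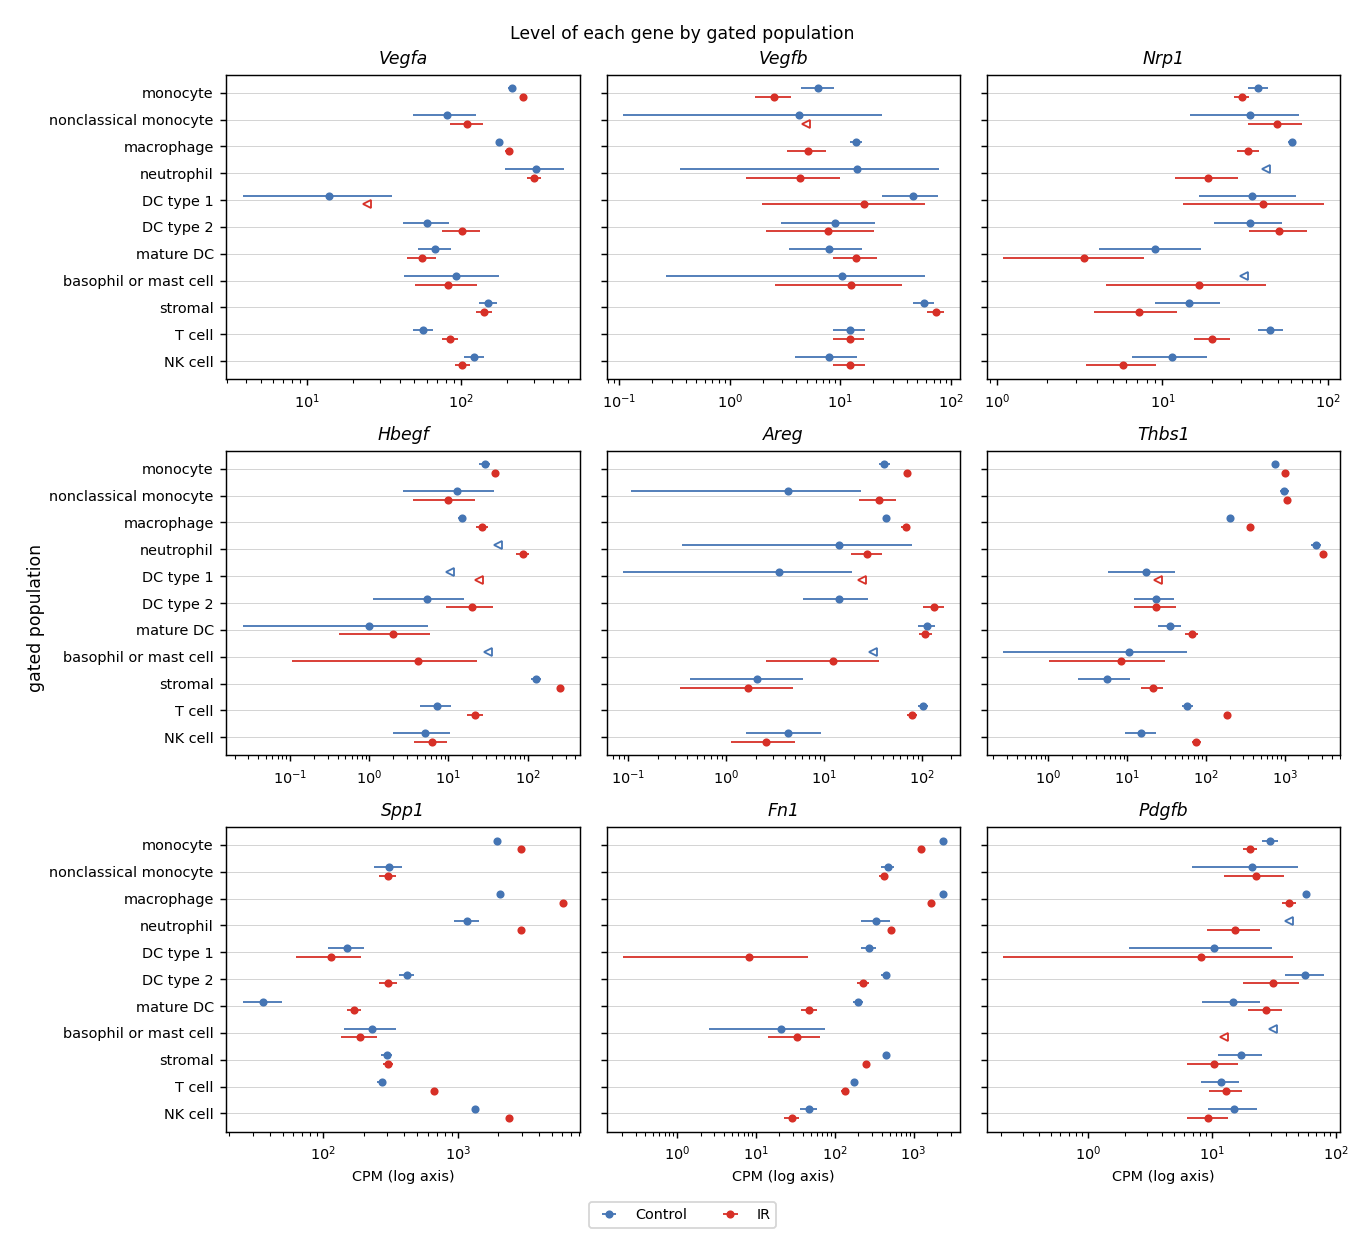
Level of each gene (CPM, log axis) by gated population in Control and IR, with exact Poisson 95% intervals, and open triangles at 3 counts, the upper limit where a gate had 0 UMIs. Thbs1 was highest in neutrophils (2532 and 3054 CPM) and Hbegf in stromal cells (128 and 258 CPM).

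Hbegf, on the minus strand of chr18:36504927-36515805, encodes heparin-binding EGF-like growth factor and had its highest level in the stromal gate. Stromal cells held 128 CPM (110.3 to 148, 185 UMIs) without and 258 CPM (235 to 283, 467 UMIs) after radiation, a log2 ratio of 1.01 (0.76 to 1.27), and were called higher. The gate was set by collagen and small proteoglycan genes, and its 78 and 60 cells had medians of 16787 and 28102.5 UMIs. Its level of Ptprc, which encodes CD45, was 13.9 and 7.19 CPM, against 463 and 491 CPM over all kept cells. Its epithelial markers summed to 1.39 and 0 CPM and its endothelial markers to 4.16 and 4.42 CPM, with Kdr, Tie1 and Cldn5 at 0, while Pdgfrb, a pericyte and fibroblast receptor, stood at 55.4 and 50.3 CPM. Among the gate markers Col3a1 was highest (3042 and 2146 CPM). The lowest were Col1a1 (131 and 39.8 CPM), Lum (18.7 and 0 CPM) and Postn (11.1 and 4.98 CPM). Proliferation genes, Top2a and Mki67 among others, summed to 1773 and 1155 CPM, against 715 and 414 CPM over all kept cells. Whether the cells were fibroblasts or tumor cells was not tested.

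In the stromal gate 7.41% of 7116 genes were called in either direction, and of the 5 members with enough UMIs Hbegf and Fn1 were. Immediate-early and dissociation genes were called higher in the same cells for 5 of the 12 tested (Fos, Atf3, Ier3, Dusp1 and Hspa1b), with Fos at 970.2 CPM in Control and 2206 CPM in IR. Their part in the Hbegf value was not tested.

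Among myeloid cells Hbegf was called higher in macrophages, from 14.8 CPM (13.2 to 16.6) to 26.5 CPM (22.1 to 31.4), a log2 ratio of 0.84 (0.53 to 1.14). Monocytes held 28.9 CPM (24.6 to 33.7) without and 38.8 CPM (35.3 to 42.5) after radiation, a log2 ratio of 0.43 (0.16 to 0.70), and were not called. The monocyte ratio was 0.82 with gates from Ly6c2 and Ccr2 against C1qa and 0.14 as a mean over cells. Neutrophils had 0 UMIs in 32 Control cells, which allows up to 42.2 CPM at 3 counts over the gate and 51.9 CPM by the exact interval. They held 86.3 CPM (70.3 to 105) in 227 IR cells, with no overlap of intervals. No ratio is given, since the Control count was 0. The Control neutrophils were also shallow, with a median of 1846 UMIs against 2753 in IR. Empty droplets, which hold the free RNA of a library, had 9.72 CPM (Control) and 17.8 CPM (IR) of Hbegf.

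Areg, on the plus strand of chr5:91139599-91148432, encodes amphiregulin, a repair ligand known from regulatory T cells and basophils. It was called higher in monocytes, from 41.3 CPM (36.1 to 47.0, 229 UMIs) to 69.9 CPM (65.1 to 74.9, 807 UMIs), a log2 ratio of 0.76 (0.54 to 0.98). Macrophages went from 43.1 CPM (40.3 to 46.1) to 68.2 CPM (61.1 to 75.9), a log2 ratio of 0.66 (0.48 to 0.85). Both depended on the setting, since the monocyte ratio was 0.40 with gates from Ly6c2 and Ccr2 against C1qa, and the macrophage ratio 0.58 without mitochondrial and ribosomal protein genes, both under 1.5 times. The UMIs lay in few cells. In the thinned data 1.05% (0.456% to 2.07%) of Control monocytes and 2.61% (1.76% to 3.73%) of IR monocytes had an Areg UMI, against 5.40% and 7.03% unthinned, and 1 IR monocyte held 92 UMIs. The macrophage shares, 2.65% (1.99% to 3.45%) and 2.50% (1.21% to 4.55%), overlapped. T cells, where the free RNA estimate was 1.69% and 3.90% of the Areg level, had 5.36% and 2.29% and are no background for this gene. NK cells, with 4.30 and 2.58 CPM and a free RNA estimate of 25.3% and 66.7%, had an Areg UMI in 0 of 209 Control cells, which allows a share of up to 1.44% at 3 counts, and in 1 of 308 IR cells.

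The largest called ratio of Areg over the gates was in type 2 dendritic cells, from 14.3 CPM (6.15 to 28.1, 8 UMIs) in 54 cells to 131 CPM (102 to 167, 67 UMIs) in 36 cells, a log2 ratio of 3.20 (2.14 to 4.47). Of the IR UMIs, 36 were in 1 cell. In that gate 5.35% of 2841 genes were called in either direction, and Areg and Fn1 were called of the 4 members tested. Mature dendritic cells, set by Ccr7, Fscn1 and Ccl22 among others, held 112 CPM (91.9 to 134) and 108 CPM (92.4 to 126), and T cells 102 CPM (90.7 to 114) and 79.4 CPM (70.1 to 89.6). These gates had the highest levels in Control and were not called. Basophils or mast cells had 0 Areg UMIs in 35 Control cells, which allows up to 31.3 CPM at 3 counts, and 3 UMIs in 64 IR cells.

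Areg and Spp1 were the members called higher in both main gates, and their promoter windows are shown for that reason. RefSeq windows were matched for 5 of the 9 members (Vegfa, Vegfb, Nrp1, Areg and Spp1) and not for Hbegf, Thbs1, Fn1 and Pdgfb. They run from 250 bases before to 50 bases from the start of transcription on GRCm38.p6, and both shown are on the plus strand, Areg at chr5:91139349-91139648 and Spp1 at chr5:104434861-104435160. Capitals mark matches on either strand to the motifs searched, which were the AP-1 site (TGA and TCA with any 1 base between them), the CRE (TGACGTCA), the core of the hypoxia response element (ACGTG), the PU.1 site (GAGGAAGT) and the TATA box (TATAAA).
Areg: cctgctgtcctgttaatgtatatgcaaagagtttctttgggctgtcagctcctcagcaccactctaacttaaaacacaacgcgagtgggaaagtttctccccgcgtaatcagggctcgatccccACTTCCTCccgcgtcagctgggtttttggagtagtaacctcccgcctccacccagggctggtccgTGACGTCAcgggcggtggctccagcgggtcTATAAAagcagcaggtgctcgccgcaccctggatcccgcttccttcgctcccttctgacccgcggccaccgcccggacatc
Spp1: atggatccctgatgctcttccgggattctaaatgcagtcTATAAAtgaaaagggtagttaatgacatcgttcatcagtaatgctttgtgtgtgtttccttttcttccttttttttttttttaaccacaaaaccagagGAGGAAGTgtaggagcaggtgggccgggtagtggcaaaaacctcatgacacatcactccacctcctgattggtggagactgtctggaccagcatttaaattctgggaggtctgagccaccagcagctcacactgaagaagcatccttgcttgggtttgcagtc
The Areg window held 1 CRE match at position -61 from the start, 1 PU.1 match at -126 and 1 TATA box match at -31. The Spp1 window held 1 PU.1 match at -113 and 1 TATA box match at -211, and no matches overlapped. All are matches of letters, and whether any of them is used was not tested. Of 32851 windows of this length, 1.79% held the CRE, 3.20% the PU.1 motif, 13.6% the TATA box, 7.81% AP-1 and 19.6% the hypoxia core. No match to these letters was in the Vegfa, Vegfb and Nrp1 windows.

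Thbs1, on the plus strand of chr2:118111876-118127133, encodes thrombospondin-1, a known inhibitor of vessel growth that binds CD36 and CD47. Neutrophils had the highest level, 2532 CPM (2176 to 2930.3) without and 3054 CPM (2954 to 3156) after radiation, followed by nonclassical monocytes at 993 CPM (869.6 to 1129) and 1074 CPM (994 to 1159.7). Monocytes held 749 CPM (727 to 772) and 1015 CPM (997 to 1034), a log2 ratio of 0.44 (0.39 to 0.49), with no overlap but under 1.5 times. The monocyte ratio was 0.61 with gates from Ly6c2 and Ccr2 against C1qa, over 1.5 times, and 0.34 as a mean over cells. Macrophages held 205 CPM (198 to 211) without and 367 CPM (350.3 to 384) after radiation and were called higher, at a log2 ratio of 0.84 (0.76 to 0.92). The order of these 4 gates was the same in both libraries, and only nonclassical monocytes and monocytes in IR had overlapping intervals.

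At 1000 UMIs per cell, 50% (31.9% to 68.1%) and 70.5% (64.1% to 76.3%) of neutrophils had a Thbs1 UMI, 34.3% (30.9% to 37.8%) and 42.3% (39.4% to 45.3%) of monocytes and 14.5% (13.0% to 16.2%) and 21.2% (17.3% to 25.6%) of macrophages. T cells had 1.86% and 4.86%. The 8 neutrophil markers summed to 156 and 436 CPM in the monocyte gate, 117 and 306 CPM in the macrophage gate and 63796 and 39485 CPM in the neutrophil gate. The 5 platelet markers, of a cell type rich in thrombospondin-1, summed to 3.25 and 2.86 CPM in monocytes and 5.04 and 15.1 CPM in macrophages, with Gp9 and Gp1bb at 0. The part of either list in the Thbs1 values was not tested.

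Thbs1 was called higher in lymphocytes as well, from 58.2 to 184 CPM in T cells and from 15.1 to 75.4 CPM in NK cells. In IR T cells the top 10% of cells held 99.2% of its UMIs. Neutrophil markers summed to 94.5 and 240.3 CPM in the T cell gate, and empty droplets had 152 CPM (Control) and 318 CPM (IR) of Thbs1. The upper estimate of free RNA was 8.58% and 12.1% of the T cell level. In nonclassical monocytes 5.75% of 2504 genes were called in either direction and none of the 4 members tested, and in neutrophils 11.5% of 2806 genes and 2 of 5 members, Hbegf and Spp1.

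Spp1, on the plus strand of chr5:104435118-104441050, encodes osteopontin, a secreted ligand of CD44 and integrins that is known from tumor macrophages. Macrophages went from 2060.0 CPM (2040.2 to 2080.0, 41280 UMIs) to 6044 CPM (5975 to 6113, 29685 UMIs), a log2 ratio of 1.55 (1.53 to 1.57). Monocytes went from 1953 CPM (1917 to 1990.4) to 2929.9 CPM (2899 to 2961), a log2 ratio of 0.58 (0.55 to 0.62), which is at the limit of a call. It was under 1.5 times with a floor of 2000 UMIs per cell, without the cells of highest doublet score, without mitochondrial and ribosomal protein genes and with free RNA subtracted. Neutrophils went from 1168 CPM (930.0 to 1447) to 2942 CPM (2844 to 3042), a log2 ratio of 1.33 (1.02 to 1.67). The Control value rests on 83 UMIs in 32 cells, and the top 10% of neutrophils held 86.7% and 65.7% of the Spp1 UMIs. In this gate the neutrophil markers summed to 63796 and 39485 CPM and the monocyte markers to 2462 and 3795 CPM. The part of other cells in the neutrophil value was not tested. Apart from the 8 plasmacytoid dendritic cells of Control, where 1 cell held nearly all Spp1 UMIs, macrophages had the highest level in both libraries, and in IR neutrophils and monocytes overlapped behind them.

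The higher Spp1 level in macrophages was seen across the range of cells. Per 10000 UMIs, the lower quartile, median and upper quartile were 1.01, 6.03 and 20.1 in Control macrophages and 3.64, 19.6 and 72.2 in IR macrophages. At 1000 UMIs per cell 49.1% (46.9% to 51.3%) of Control and 69.5% (64.7% to 74.0%) of IR macrophages had a UMI, against 78.0% and 87.5% unthinned. The shares were 35.7% (32.3% to 39.2%) and 47.0% (44.0% to 49.97%) in monocytes and 10.9% (8.29% to 14.0%) and 18.9% (14.9% to 23.4%) in T cells. Empty droplets had 1351 CPM (Control) and 2247 CPM (IR) of Spp1, and the upper estimate of free RNA was 8.42% and 1.62% of the macrophage level and 6.51% and 6.60% of the monocyte level.

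**Figure D3:**
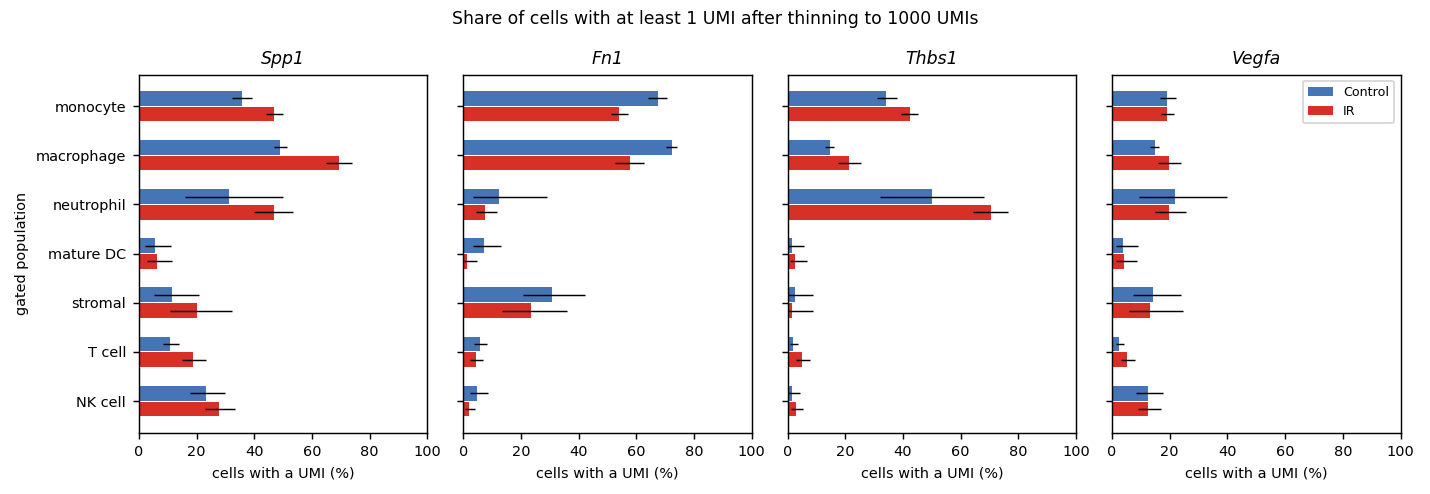
Share of cells (%) with at least 1 UMI after each cell was thinned to 1000 UMIs, by gate, in Control and IR, with exact binomial 95% intervals for counting error. The Spp1 share in macrophages was 49.1% and 69.5%, and the Fn1 share 72.3% and 57.8%.

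The macrophage gate was divided by 5 marker lists. The Mmp12 subset, named for a macrophage elastase, had the highest Spp1 level, 5649.6 and 11401 CPM in 259 and 72 cells, a log2 ratio of 1.01 (0.98 to 1.05). The Clec5a subset went from 1609 to 4116 CPM (133 and 95 cells), the Dcstamp subset from 1135 to 2905 CPM (69 and 16 cells) and the cycling subset from 1061 to 3969 CPM (242 and 12 cells). The remaining 1215 and 195 macrophages went from 1781 to 5715 CPM. All 5 of these were called higher. The Lyve1 subset held 158 CPM (126 to 195) and 251 CPM (162 to 370.1), with overlapping intervals.

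Other members were less even across the subsets. In the Mmp12 subset 7.44% of 6139 genes were called in either direction, and of 8 members Areg and Spp1 were called higher and Fn1 lower. Areg there went from 83.7 CPM (72.8 to 95.8) to 162 CPM (137 to 189.6), while the remaining macrophages held 40.6 and 40.3 CPM. In the Clec5a subset 8.72% of 5158 genes and 4 of 6 members were called, Nrp1 and Fn1 lower and Thbs1 and Spp1 higher. Among the remaining macrophages 9.19% of 9400 genes and 6 of 9 members were called, Hbegf, Thbs1 and Spp1 higher and Vegfb, Nrp1 and Pdgfb lower.

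The cycling and Dcstamp subsets, with 12 and 16 IR cells, differed from each other. In cycling cells 5.77% of 6844 genes and 4 of 8 members were called, Vegfa, Areg, Thbs1 and Spp1, all higher. In Dcstamp cells 10.1% of 3185 genes and 4 of 7 members were called, Spp1 higher and Vegfa, Thbs1 and Fn1 lower. Thbs1 went from 113 to 589.6 CPM in the former and from 193 to 33.2 CPM in the latter. It was also called lower in the Lyve1 subset, from 57 to 2 UMIs.

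**Figure D4:**
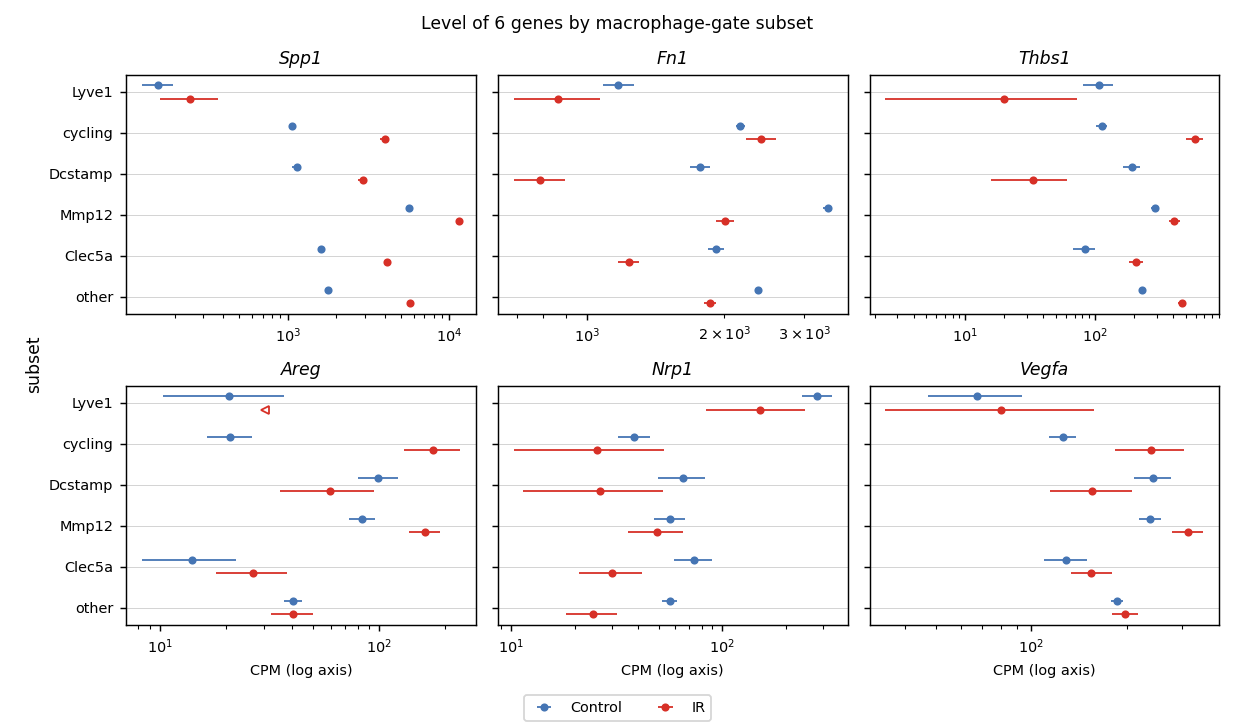
Level (CPM, log axis) of members in the macrophage subsets in Control and IR, with exact Poisson 95% intervals, and open triangles at 3 counts, the upper limit for 0 UMIs. Spp1 was highest in the Mmp12 subset (5649.6 and 11401 CPM) and Nrp1 in the Lyve1 subset (282 and 150.4 CPM).

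NK cells held 1338 CPM (1278 to 1400.0) of Spp1 in Control and 2384 CPM (2329.8 to 2439) in IR, a log2 ratio of 0.83 (0.76 to 0.91). They had 14.6 Spp1 UMIs per UMI of the macrophage C1q genes in Control and 38.5 in IR. Monocytes had 3.44 and 4.70, neutrophils 2.77 and 11.7, T cells 1.88 and 5.95 and stromal cells 6.11 and 78.1 (the last over 7 C1q UMIs), against 0.307 and 1.41 in empty droplets. The upper estimate of free RNA, also from the C1q genes, was 2.11% and 3.67% of the NK level. Barcodes of the NK, T cell, neutrophil and stromal gates with at least 20 C1q UMIs per 10000 had been set aside, which limits their C1q counts. The source of the Spp1 UMIs was not tested. The thinned shares of NK cells with an Spp1 UMI were 23.4% (17.9% to 29.8%) and 27.9% (23.0% to 33.3%). The top 10% of NK cells held 82.8% and 84.4% of its UMIs. In the NK gate 7.27% of 6671 genes and 3 of 5 members were called, Thbs1 and Spp1 higher and Fn1 lower.

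In T cells Spp1 was called higher, from 271 to 662 CPM, where the upper estimate of free RNA was 16.4% and 23.8%. In mature dendritic cells it went from 36 to 255 UMIs, but 133 of the latter were in 1 cell and the free RNA estimate was 160.3% and 62.6% of the level. Plasmacytoid dendritic cells had 275 UMIs in 8 Control cells and 2 in 8 IR cells, and 273 of the former were in 1 cell. Stromal cells held 296 CPM (269 to 326) and 303 CPM (278 to 329) and nonclassical monocytes 307 and 303 CPM, with overlapping intervals.

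Fn1, on the minus strand of chr1:71585520-71653200, encodes fibronectin, a scaffold of the provisional wound matrix. Monocytes went from 2372 CPM (2332 to 2413, 13150 UMIs) to 1241 CPM (1221 to 1262, 14335 UMIs), a log2 ratio of -0.93 (-0.97 to -0.90), and were called lower. Macrophages went from 2376 CPM (2355 to 2397) to 1685 CPM (1648 to 1721), a log2 ratio of -0.50 (-0.53 to -0.46), which was not called. It passed 1.5 times with gate thresholds of 2 times those used (-0.60) and as a mean over cells (-0.68). The 2 gates overlapped in Control and were separate in IR. At 1000 UMIs per cell 67.5% (64.0% to 70.8%) and 54.1% (51.1% to 57.1%) of monocytes had a UMI, 72.3% (70.2% to 74.2%) and 57.8% (52.7% to 62.6%) of macrophages, and 5.77% and 4.29% of T cells. Empty droplets had 996 CPM (Control) and 546 CPM (IR).

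Fn1 was called lower in 6 of the 10 gates where it had enough UMIs and higher in none. Stromal cells went from 447 CPM (414 to 483) to 251 CPM (228 to 275) and type 2 dendritic cells from 444 CPM (390.2 to 502) to 229 CPM (189.6 to 275). Mature dendritic cells went from 199 CPM (173 to 229) to 47.9 CPM (37.5 to 60.3), with 66 of the 200 Control UMIs in 1 cell, in a gate where 8.73% of 4797 genes and 3 of 6 members were called (Thbs1 and Spp1 higher and Fn1 lower). Type 1 dendritic cells had 78 UMIs in 28 Control cells and 1 UMI in 10 IR cells. Among macrophage subsets Fn1 was called lower in the Mmp12, Clec5a and Dcstamp subsets, while cycling cells held 2169.9 CPM (2121 to 2219) and 2409 CPM (2229 to 2601).

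The molecules of each gene were also counted by gate. Macrophages held 48.2% and 13.0% of all UMIs of the 2 libraries and monocytes 13.3% and 30.5%. Macrophages held 64.6% and 31.8% of Spp1, 68.8% and 28.4% of Fn1 and 66.3% and 26.2% of Pdgfb, above their share of all UMIs in both libraries. They held 33.1% and 7.66% of Hbegf and 39.6% and 7.79% of Thbs1, below it. Neutrophils held 1.74% and 15.3% of Thbs1, and monocytes 40.1% and 50.7%.

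Over all kept cells Thbs1 went from 249.2 to 612 CPM. The Control level of each gate in the IR mix of gates gave 401 CPM, and the IR levels in the Control mix 431 CPM, both between the libraries. Spp1 went from 1538 to 2466 CPM, and the same values were 1313 CPM, below both libraries, and 3777 CPM, above both. Fn1 went from 1666 to 771 CPM, with 1312 and 1096 CPM in between. Nrp1, at 46.7 and 24.9 CPM, gave 35.6 and 28.3 CPM.

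**Figure D5:**
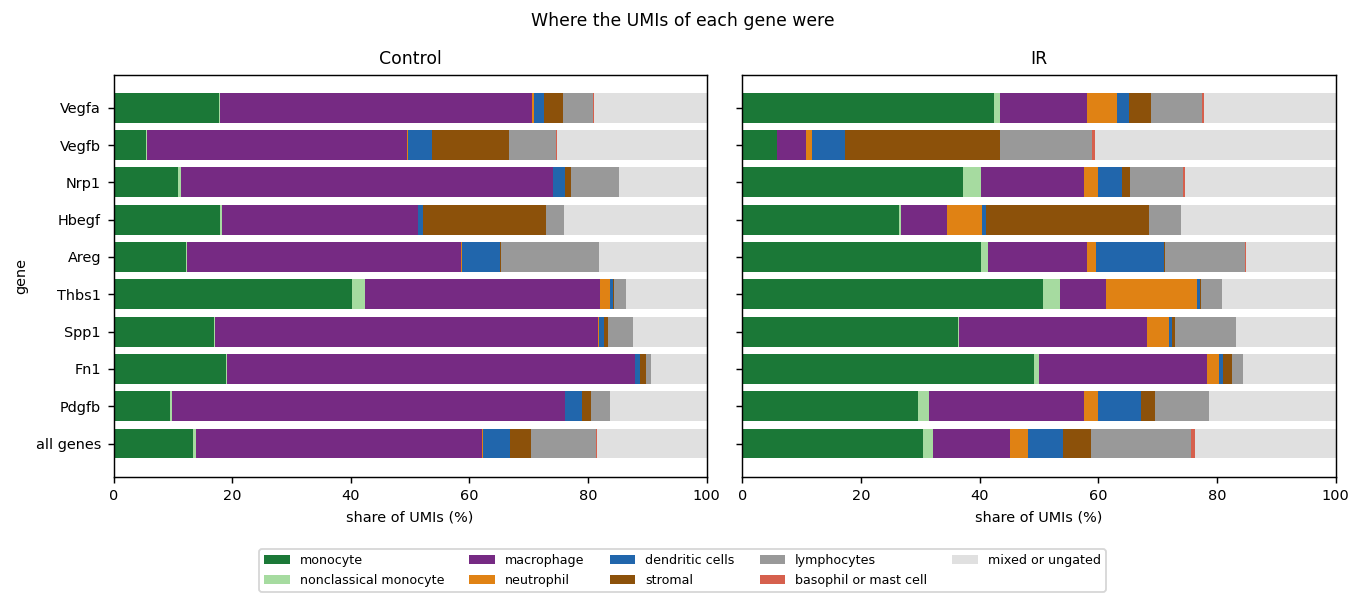
Share of the UMIs of each gene (%) by gated population in Control and IR, with the share of all genes for comparison. Macrophages held 64.6% and 31.8% of Spp1 UMIs, and neutrophils 1.74% and 15.3% of Thbs1.

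The members were compared across 28 points, each a population or macrophage subset of 1 library with at least 20 cells. The highest Pearson correlations of log2(CPM + 10) between members were 0.76 for Fn1 with Pdgfb, 0.75 for Vegfa with Spp1 and 0.70 for Nrp1 with Pdgfb, and the lowest was -0.56 for Vegfb with Thbs1. The points share libraries, depth and free RNA, and the values are a description. Among 3581 genes with at least 100 CPM in a point, those most like Thbs1 were Smox (0.94), Rnf149 (0.91) and Trem1 (0.91), and those most like Fn1 were Tgfbi (0.94), Trem2 (0.91) and Dab2 (0.91). Spp1 was most like Nos2 (0.86), Nt5e (0.85) and Tmem119 (0.83), and the genes most like Nrp1 included Ap1b1 (0.83) and Selenop (0.82).

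Hbegf was most like Cxcl1 (0.83), Errfi1 (0.80) and Ackr3 (0.80), of which Errfi1 encodes a feedback inhibitor of the EGF receptor. Vegfa was most like Cstb (0.79), Alas1 (0.76) and Egln3 (0.76), of which Egln3 is a hypoxia target. Vegfb was most like Scd1 (0.81), Fkbp11 (0.79) and Rbbp7 (0.79), Areg like Il7r (0.76), Flrt3 (0.73) and Got1 (0.72) and Pdgfb like Ndufc1 (0.87), Tmem256 (0.87) and 2610001J05Rik (0.87). With a pseudocount of 1 CPM in place of 10, between 0 (Nrp1) and 2 of the 3 genes of each member were kept. Errfi1 and Egln3 were not among those kept for Hbegf and Vegfa.

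Other genes of the same pathways were read from lists. Of 10 further VEGF ligands and receptors, 4 had enough UMIs in monocytes, where Flt1 (33.0 to 21.2 CPM) and Nrp2 (51.6 to 32.6 CPM) were called lower, and 4 in macrophages, where Pgf, encoding placental growth factor, was called higher (11.5 to 19.3 CPM). None of the 5 angiopoietin axis genes had enough UMIs in either gate. Kdr, the main VEGF receptor of endothelium, had 6 and 28 UMIs in monocytes and 26 and 15 in macrophages. Egfr, the receptor of Hbegf and Areg, had 0 and 1 UMIs in monocytes and 6 and 0 in macrophages.

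Of 13 further EGF-type genes, 5 were tested in each gate and the ligand Ereg and the tetraspanin Cd9 were called higher in both. Ereg went from 4.69 to 8.57 CPM in monocytes and from 0.948 to 12.01 CPM in macrophages, and Cd9 from 400.1 to 612 CPM and from 439 to 770.4 CPM. Adam17, the main sheddase of these ligands, was not called (88.4 and 72.5 CPM in monocytes and 102 and 74.9 CPM in macrophages). The thrombospondin list had 3 of 6 genes tested in each gate, with 0 called in monocytes, where Cd47 differed most (343 and 477 CPM), and Cd36 called higher in macrophages (57.7 to 131 CPM). Of 8 receptors for osteopontin and fibronectin, 0 of 7 were called in monocytes, where Itgb3 differed most (3.79 and 6.23 CPM), and 1 of 8 in macrophages, Itgb5, lower (99.0 to 64.3 CPM). Pdgfa was called lower in both gates (39.1 to 23.5 CPM and 71.4 to 42.1 CPM) and Pdgfc lower in macrophages (11.2 to 5.70 CPM).

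Of 11 other repair factors, 8 were tested in monocytes and 10 in macrophages. Plaur, the urokinase receptor (599 to 965 CPM and 298 to 575 CPM), and Il1rn, the interleukin-1 receptor antagonist (228 to 465 CPM and 240.3 to 486 CPM), were called higher in both, Plau higher in monocytes and Sparc in macrophages. Igf1 was called lower in both (9.02 to 1.47 CPM and 26.1 to 7.94 CPM) and Gas6 lower in macrophages (32.4 to 5.70 CPM). Of the 10 hypoxia targets, 0 of 9 tested were called in monocytes, where Hilpda differed most (174 and 256 CPM), and in macrophages Hilpda was called higher (121 to 244 CPM) and Adm lower (3.99 to 1.22 CPM). Of the 13 immediate-early and dissociation genes, Ier3 was called higher and Fosb lower in both gates, with Hspa1a and Hspa1b higher in monocytes and Hspa1b lower in macrophages.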

How the data were processed

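The deposited matrices hold raw UMI counts per gene and barcode, which the authors made with Cell Ranger (6.0.1 in the submitters' processing notes, 4 in the matrix header) on mm10 from 3′ droplet libraries, with tumors pooled before sorting. They keep all barcodes, 1067746 in Control and 990007 in IR, with 48593879 and 42406461 UMIs, so cells were chosen here. Gates required a minimum of marker UMIs per 10000 and of different marker genes, with thresholds set after looking at the counts. Cells passing gates of different lineages were set aside as the treatment of doublets, since the automatic Scrublet threshold marked 2 and 0 cells.

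Counts were summed per gate and library, with exact Poisson intervals, an exact conditional interval for the ratio and Clopper-Pearson intervals for shares, which cover counting error only. No p-value was computed. Free RNA was estimated from barcodes with 10 to 100 UMIs through genes of another lineage. Taking all UMIs of those genes as free RNA gives an upper estimate, but cells rich in them had been set aside by the gates, which lowers it. The ratio script was tested on simulated data. The 9 genes and all lists were chosen with earlier results of these data known. All 9 are named, genes from other lists are named where called in the monocyte, macrophage, neutrophil, stromal or mature dendritic cell gate, or, in monocytes and macrophages, by the largest difference where none of a list was called, and for each member the 3 genes with the highest correlation are named, except 1 that is not reported here. Alternatives covered the UMI floor, mitochondrial limit, doublets, gates, scaling, free RNA and call limits. Python 3.11.15, numpy 2.4.6, scipy 1.17.1, pandas 2.3.3, scanpy 1.11.5, R 4.3.3 and edgeR 4.0.16 (TMM factors only) were used.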

Additional observations from a re-analysis of the deposited data

Results flagged for a closer look

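Some genes had opposite directions in related gates, and the differences between gates were not tested. The log2 ratio of Vegfa was 0.92 in cycling macrophages (439 and 65 UMIs) and -0.63 in Dcstamp macrophages (227 and 47 UMIs). That of Thbs1 was 2.38 in cycling macrophages (395 and 161 UMIs) and -2.54 in Dcstamp macrophages (181 and 10 UMIs). The IR libraries of these subsets held 12 and 16 cells. That of Spp1 was 2.24 in mature dendritic cells and -7.32 in plasmacytoid dendritic cells, where 1 cell held 133 of 255 IR UMIs and 273 of 275 Control UMIs.

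Empty droplets form no gate but supply the free RNA estimates. They held 3 genes at a level at least 1.5 times higher in IR with no overlap of intervals. The log2 ratios were 0.87 for Hbegf (42 and 55 UMIs), 1.07 for Thbs1 and 0.73 for Spp1.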

How the results depend on the processing

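Of 258 values recomputed, 181 stayed within the counting error or, for a count of called members, within 1.5 times of it, and 77 moved further. None of the 18 ratios of the 9 genes in monocytes and macrophages changed direction under 10 alternatives. The cause of a move was not tested. The log2 ratios that moved are given by setting. Without mitochondrial and ribosomal protein genes in the total they were 0.37 for Thbs1, 0.52 for Spp1 and -1.003 for Fn1 in monocytes and 0.76 for Thbs1, 1.47 for Spp1 and -0.58 for Fn1 in macrophages. With TMM factors they were 0.63 for Spp1 and -0.89 for Fn1 in monocytes and 1.59 for Spp1 and -0.45 for Fn1 in macrophages. With at most 10% mitochondrial UMIs they were 0.67 for Spp1 and -0.89 for Fn1 in monocytes and 1.62 for Spp1 and -0.44 for Fn1 in macrophages. Without the 6% of cells with the highest Scrublet scores (281 and 205 cells) they were 0.55 for Spp1 in monocytes and 0.72 for Thbs1 and 1.52 for Spp1 in macrophages. With free RNA subtracted they were 0.86 for Areg, 0.93 for Thbs1, 1.66 for Spp1 and -0.44 for Fn1 in macrophages. With gate thresholds of 2 times those used they were 0.38 for Vegfa, 0.38 for Thbs1 and 0.68 for Spp1 in monocytes and 0.44 for Vegfa, 1.18 for Areg, 1.15 for Thbs1, 1.38 for Spp1 and -0.60 for Fn1 in macrophages. With gates from Ly6c2 and Ccr2 against C1qa they were 0.82 for Hbegf, 0.40 for Areg, 0.61 for Thbs1, 0.88 for Spp1 and -0.89 for Fn1 in monocytes and 0.33 for Vegfa, 0.98 for Areg, 1.11 for Thbs1 and 1.51 for Spp1 in macrophages. As a mean over cells they were 0.14 for Hbegf, 1.18 for Areg, 0.34 for Thbs1 and 0.69 for Spp1 in monocytes and -1.37 for Nrp1, 0.60 for Thbs1, 1.47 for Spp1 and -0.68 for Fn1 in macrophages.

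The members called changed with several settings, and the share of all genes called was counted only under the main setting. In monocytes Spp1 was not called with a floor of 2000 UMIs per cell or without the cells of highest Scrublet score, which left 1 called higher (Areg). With gates from Ly6c2 and Ccr2 against C1qa, 3 were called higher in monocytes (Hbegf, Thbs1 and Spp1, not Areg) and 3 lower (Vegfb, Fn1 and Pdgfb). With gate thresholds of 2 times those used, Fn1 and Pdgfb were called lower in monocytes and Vegfb was not, and in macrophages Fn1 was called lower as well, 3 in place of 2. A limit of 2 times in place of 1.5 left 0 called higher and 1 lower (Vegfb) in monocytes and 1 higher (Spp1) and 1 lower (Vegfb) in macrophages. A lower floor of UMIs per cell and a minimum of 20 UMIs or 1 UMI for a call left the called members as they were. Thinning to 2000 UMIs, which by its construction counts more UMIs per cell, raised the shares of cells with a UMI. In Control and IR monocytes they were 27.8% and 30.2% for Vegfa, 2.70% and 3.32% for Areg, 43.8% and 51.7% for Thbs1, 46.1% and 56.3% for Spp1 and 81.1% and 71.6% for Fn1, and in macrophages 4.18% and 5.48% for Areg, 22.2% and 31.9% for Thbs1, 61.2% and 77.5% for Spp1 and 82.6% and 70.8% for Fn1. The order of the libraries changed for Areg in macrophages, with overlapping intervals at both depths. Of the neutrophils, 24 of 32 and 55 of 227 had too few UMIs for this depth. No paired analysis was possible because each group had 1 library, and for the same reason no replicate could be left out. Depth limits Vegfb and the gates with few cells, where a few UMIs set a level.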

Other observations

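Cells that carried markers of more than 1 lineage entered no comparison. They held 209 and 736 CPM of Thbs1, 1086 and 2288 CPM of Spp1 and 1179 and 768 CPM of Fn1 in Control and IR. In mature dendritic cells 6 of 13 immediate-early and dissociation genes were called lower (Fos, Fosb, Atf3, Hspa1a, Hspa1b and Zfp36). The repair genes Plaur (39.9 to 78.5 CPM) and Il1rn (88.7 to 162 CPM) and the hypoxia targets Hilpda (20.9 to 57.2 CPM) and Slc2a1 (17.9 to 38.6 CPM) were called higher there, and Cd44 (166 to 102 CPM), Bnip3 (62.8 to 27.9 CPM) and Ero1l (44.9 to 15.96 CPM) lower. In neutrophils the hypoxia targets Egln3 (70.3 to 199 CPM), Ndrg1 (14.1 to 105 CPM) and Ldha (563 to 879.9 CPM), with Lgals3 (985 to 2202 CPM) and Ier3 (2209 to 4003 CPM), were called higher, and Ero1l (352 to 161 CPM), Fosb (619 to 313 CPM) and Btg2 (1238 to 813 CPM) lower, with 32 cells in Control. In stromal cells Lgals3 (962 to 1495 CPM) was called higher and Egln3 (30.5 to 14.9 CPM) lower, and the EGF-type ligand Btc (14.5 to 29.9 CPM) and Angptl4 (20.8 to 39.3 CPM) were called higher.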
